A study of Mus musculus with 33 samples.

Results

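The genes described here are 41 genes of fatty acid oxidation and ketogenesis together with other known targets of the nuclear receptor PPARA. The set is a list of gene names, of which 40 were found by name and 1 (Cyp4a32) by its Ensembl identifier among 25988 counted genes. Of the 41 genes, 39 passed the filter on low counts and were tested, and Pdk4 and Cyp4a32 did not. The study asked what happens when the hepatic activity of ChREBP, a glucose-responsive transcription factor, is brought down in a mouse model of Glycogen Storage Disease type Ia, in which hepatocytes lack the catalytic subunit of glucose-6-phosphatase (G6pc). Liver RNA was sequenced by QuantSeq, which reads the 3' ends of transcripts, in 33 libraries of 4 groups. The groups were shChREBP/L-G6pc-/- (9 libraries), shChREBP/L-G6pc+/+ (8), shSCR/L-G6pc-/- (8) and shSCR/L-G6pc+/+ (8). All mice were male C57BL/6J mice with loxP-flanked G6pc, 13 to 18 weeks old at infection, and all were given tamoxifen after an adeno-associated virus (AAV2/8) that carried a short hairpin RNA against Mlxipl, the ChREBP gene, or a scrambled hairpin (shSCR). Only the L-G6pc-/- mice carried the tamoxifen-inducible Cre, which is driven from the albumin gene, so that deletion was restricted to hepatocytes while other liver cells kept G6pc. Livers were taken from nonfasted mice at the shorter of the follow-ups after tamoxifen. The sources do not state whether each library is a different mouse, so n counts libraries, and p-values measure the spread between libraries.

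Fatty acids enter the hepatocyte, are bound by FABP1, are activated to acyl-CoA and reach the mitochondrial matrix as carnitine esters. There they are shortened by repeated cycles of dehydrogenation, hydration, a second dehydrogenation and thiolysis, and much of the acetyl-CoA leaves the liver as ketone bodies. Very long-chain and dicarboxylic fatty acids are shortened in peroxisomes first, and CYP4A enzymes make dicarboxylic acids by omega-hydroxylation in the endoplasmic reticulum. PPARA, bound with RXR to direct repeats of AGGTCA-like sites spaced by a single base, drives many of these genes, most strongly during fasting, and PPARGC1A is a coactivator of PPARA. ChREBP acts in the fed state and is best known for driving glycolytic and lipogenic genes through paired E boxes.

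Promoter windows from 250 bases before to 50 bases after the start of transcription (RefSeq, GRCm38.p6) were matched for 31 of the 41 genes, with 34 windows in all. Those of 5 genes are shown. Cd36, Ehhadh, Acadl and Acaa1b are among the genes called below, and Fabp1 was the only one of the 31 genes with a relaxed PPARA-type repeat. Each is read 5′ to 3′ on the strand of its gene, and capitals mark matches to the motifs searched for on both strands.
Fabp1, chr6:71199629-71199928, plus strand: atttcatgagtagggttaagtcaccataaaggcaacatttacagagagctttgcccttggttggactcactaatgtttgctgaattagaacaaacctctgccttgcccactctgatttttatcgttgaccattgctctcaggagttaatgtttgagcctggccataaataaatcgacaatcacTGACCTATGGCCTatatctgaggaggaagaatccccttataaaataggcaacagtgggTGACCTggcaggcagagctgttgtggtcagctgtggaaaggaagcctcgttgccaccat
Cd36, chr5:17835847-17836146, minus strand: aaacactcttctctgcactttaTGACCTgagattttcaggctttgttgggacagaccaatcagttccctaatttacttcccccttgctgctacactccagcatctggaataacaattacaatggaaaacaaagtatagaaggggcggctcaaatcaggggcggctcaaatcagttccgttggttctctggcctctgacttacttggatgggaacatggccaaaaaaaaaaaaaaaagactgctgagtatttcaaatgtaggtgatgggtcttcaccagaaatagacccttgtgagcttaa
Ehhadh, chr16:21787785-21788084, minus strand: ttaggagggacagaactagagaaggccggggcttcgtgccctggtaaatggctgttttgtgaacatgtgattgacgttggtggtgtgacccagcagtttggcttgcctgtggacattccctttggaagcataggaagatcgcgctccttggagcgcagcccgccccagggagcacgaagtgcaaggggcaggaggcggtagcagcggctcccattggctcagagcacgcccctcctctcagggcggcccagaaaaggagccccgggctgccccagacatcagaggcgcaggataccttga
Acadl, chr1:66863260-66863559, minus strand: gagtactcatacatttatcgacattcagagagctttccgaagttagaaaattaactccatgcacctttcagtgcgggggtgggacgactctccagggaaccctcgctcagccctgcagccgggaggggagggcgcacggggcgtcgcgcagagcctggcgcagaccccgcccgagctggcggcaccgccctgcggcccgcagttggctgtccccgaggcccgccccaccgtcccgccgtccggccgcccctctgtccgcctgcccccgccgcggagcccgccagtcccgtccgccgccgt
Acaa1b, chr9:119157044-119157343, minus strand: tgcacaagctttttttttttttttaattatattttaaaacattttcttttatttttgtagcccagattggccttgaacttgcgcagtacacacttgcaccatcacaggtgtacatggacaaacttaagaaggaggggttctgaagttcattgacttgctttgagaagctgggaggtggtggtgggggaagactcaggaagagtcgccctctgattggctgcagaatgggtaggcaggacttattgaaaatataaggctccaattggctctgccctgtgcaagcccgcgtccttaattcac
The relaxed repeat AGGNCANAGGNCA was found in 1 of the 34 windows and in 0.381% of 32841 windows of the same length over the genome. In Fabp1 it ran on the opposite strand from 67 to 55 bases before the start, and its part from 67 to 62 bases before the start was also a match to AGGTCA, as was a stretch from 9 to 4 bases before it. The strict repeat AGGTCANAGGTCA, which the relaxed form includes, was in none of the 34 windows and in 0.0396% of all windows. At so low a share, its absence from 34 windows could not tell these genes from others. Sites outside the windows were not searched. Single AGGTCA sites lay in 8 of the 34 windows, those of Acadm, Acadvl, Acot3, Acot4, Cd36, Cpt1a and Fabp1, against 16.3% of all windows. Both Acot3 windows overlap and hold the same site, and by gene it was 7 of 31. The E box CACGTG was found for Acot4 alone among the 31 genes, against 7.15% of all windows. The exact paired form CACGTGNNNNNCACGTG was in none of the 32841 windows, so this search could not tell the 31 genes from others. Hadha and Hadhb, which encode both subunits of the mitochondrial trifunctional protein, are transcribed away from each other, and their windows shared 228 of 300 bases on chromosome 5.

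Total counts ran from 1497843 to 3546852 per library (median 2141043). Mlxipl had a median of 441 CPM (read counts per 1000000 TMM-scaled reads) in shChREBP/L-G6pc-/-, 395 in shChREBP/L-G6pc+/+, 578 in shSCR/L-G6pc-/- and 528 in shSCR/L-G6pc+/+ livers and Pklr, the liver pyruvate kinase gene that ChREBP activates, had medians of 204, 62.9, 304 and 122 CPM in that order of groups. G6pc had a median of 218 CPM in shChREBP/L-G6pc-/-, 162 in shChREBP/L-G6pc+/+, 276 in shSCR/L-G6pc-/- and 236 in shSCR/L-G6pc+/+ livers, so the medians of its 3' reads were not lower in the L-G6pc-/- groups. The part of G6pc that is deleted is not given in the sources used here, 3' reads outside it would check nothing, and the genotypes are those of the labels. In the first principal component over all genes the shChREBP/L-G6pc-/- libraries 29, 30, 32 and 33 lay apart from the other 5 of their group, library 12 of shChREBP/L-G6pc+/+ (at 8.56) lay apart from the other 7 of its group (between -21.2 and -3.70), and libraries 9 and 13 were the lowest of that group. Libraries 29, 30, 32 and 33 also had the lowest Mlxipl of their group, at 269.9, 262.9, 215.7 and 359.2 CPM, against 441 to 500 CPM in the other 5. Libraries 30, 32 and 33 had its lowest Pklr (168, 128 and 174 CPM), and library 29 had 223 CPM. Fits without these 4 libraries therefore drop those with the least Mlxipl and leave 5 in the group. The summed level of 14 hepatocyte genes had a median of 29990 CPM in shChREBP/L-G6pc-/- (between 21580 and 38354), 40900 in shChREBP/L-G6pc+/+ (between 36307 and 53367), 40518 in shSCR/L-G6pc-/- (between 32401 and 43994) and 49043 in shSCR/L-G6pc+/+ livers (between 43543 and 51881), and none of the 14 was at 0 in any group. Markers of other cell types were present at lower sums, from 2.66 to 23.8 CPM for 12 lymphocyte genes up to 1147 to 3230.4 CPM for 16 macrophage genes.

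Few of the 39 tested genes passed the test in any 1 comparison. Of the 39, 14 were called at least once over the 5 comparisons of groups. The share of all genes called at least once was not computed. The 14 lay in 5 of the 9 roles, the regulators, uptake and binding, mitochondrial and peroxisomal beta-oxidation and omega-hydroxylation. The roles without a call, the carnitine shuttle, thioesterases, other PPARA targets and ketogenesis, held 4, 4, 2 and 1 tested genes. With so few genes, the spread over roles is not read as a result. A gene was called when its p in the quasi-likelihood test of edgeR, adjusted over all 10179 genes tested, was under 0.05. In shSCR/L-G6pc-/- against shSCR/L-G6pc+/+ livers 3 genes were higher and 1 was lower, beside 2.2% of all genes higher and 1.03% lower. With shChREBP in L-G6pc+/+ livers 2 were higher and 4 were lower, beside 2.16% and 3.23% of all genes. In L-G6pc-/- livers shChREBP gave 2 higher and 0 lower, beside 3.33% and 4.23%, with 8 genes lower at an unadjusted p under 0.05 and 1 called lower by DESeq2 and by limma-voom. For counts at an unadjusted p, here and below, the share over all genes was not computed, so they give no result about the set. Between the genotypes under shChREBP 7 were higher and 1 was lower in shChREBP/L-G6pc-/- livers, beside 6.14% and 4.9%. Against shSCR/L-G6pc+/+ livers the shChREBP/L-G6pc-/- group had 3 higher and 2 lower, beside 6.87% and 6.37%. The median log2 fold change over the 39 genes was 0.08, -0.13, -0.09, 0.21 and 0.04 in the same order of comparisons, and over all genes tested it lay between -0.01 and 0.03. In shChREBP/L-G6pc-/- livers 7 of the 14 hepatocyte markers were lower too against shSCR/L-G6pc-/- livers, 4 against shChREBP/L-G6pc+/+ livers and 6 against shSCR/L-G6pc+/+ livers, and none was higher. Of the 15 macrophage markers tested, Clec4f, C1qa and C1qc were higher against shSCR/L-G6pc-/- livers and Clec4f, Cd5l and C1qc against shSCR/L-G6pc+/+ livers (list medians 0.33 and 0.37), and none was called against shChREBP/L-G6pc+/+ livers. The 16 macrophage markers, none at 0, summed to a median of 2323 CPM in shChREBP/L-G6pc-/- (between 1808 and 2777), 1659 in shChREBP/L-G6pc+/+ (between 1261 and 3230.4), 2048 in shSCR/L-G6pc-/- (between 1147 and 2665) and 1551 in shSCR/L-G6pc+/+ livers (between 1275 and 2117). All 13 stellate markers tested had a positive change against shSCR/L-G6pc-/- livers (median 0.36) and none was called. Against shChREBP/L-G6pc+/+ livers Col1a1 was called higher, but 6 of the 13 were positive and 7 negative (median -0.02). Of the 14 sinusoidal endothelial markers Pecam1 was called higher against shSCR/L-G6pc-/- livers. For shChREBP against shSCR in L-G6pc+/+ livers 14 of the 15 macrophage markers had a positive change (median 0.30) and none was called. There 13 of the 14 sinusoidal endothelial markers were positive with 1 called higher. Of the 14 hepatocyte markers 11 were negative there (median -0.14) and none was called. Between the shSCR groups 1 hepatocyte marker was called lower (list median -0.16). The part of these cell types in the counts was not tested. In bulk liver, fewer hepatocytes, less RNA per hepatocyte and lower expression of these genes within hepatocytes cannot be told apart. These comparisons share groups of libraries and are given side by side, each with its own values. For each gene called, the values of the compared groups overlapped.

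**Figure D1:**
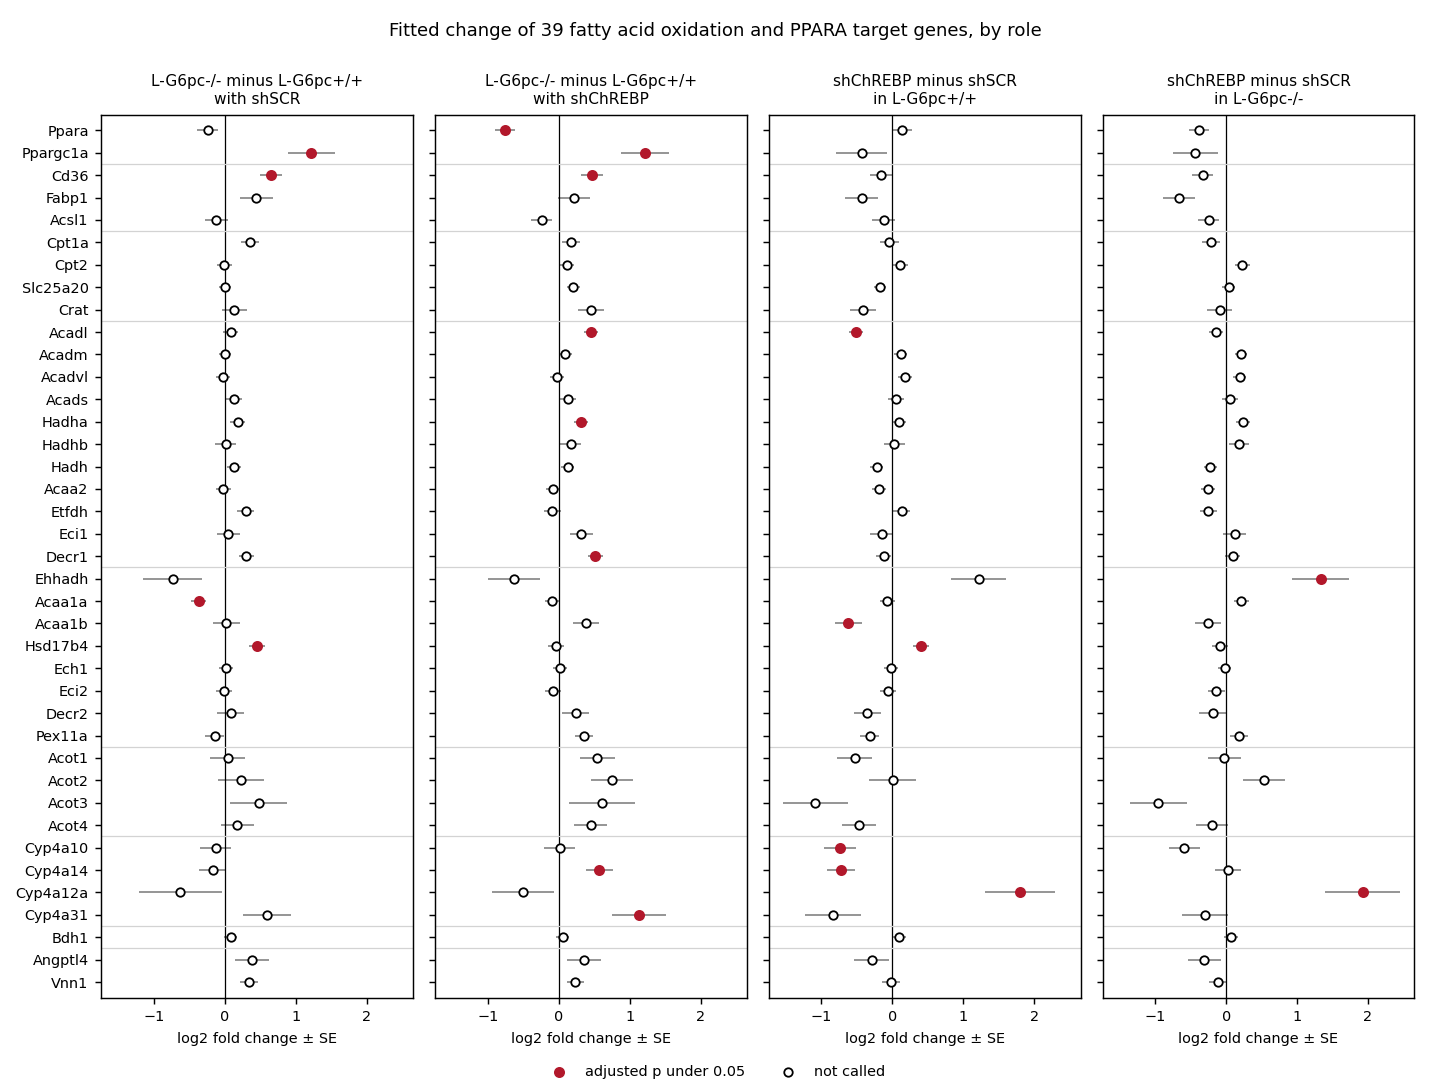
Fitted log2 fold change with its standard error (x axis) of the 39 tested genes (rows, grouped by role and separated by grey lines) in 4 comparisons, with red points for an edgeR adjusted p under 0.05 and open points otherwise. Most points lie near 0, and the widest departures are those of Ppargc1a, Ehhadh, Acot3, Cyp4a12a and Cyp4a31.

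Of the regulators, Ppargc1a, the coactivator, was higher with G6pc deficiency under either hairpin, and Ppara was lower in shChREBP/L-G6pc-/- livers than in either L-G6pc+/+ group. Ppargc1a was measured at 20.95 to 130.4 CPM (median 46.6) in shChREBP/L-G6pc-/-, 12.1 to 33.03 CPM (median 24.7) in shChREBP/L-G6pc+/+, 28.3 to 147 CPM (median 60.97) in shSCR/L-G6pc-/- and 15.6 to 54.9 CPM (median 31.3) in shSCR/L-G6pc+/+ livers. Of the 8 shSCR/L-G6pc-/- libraries 6 lay above the highest shSCR/L-G6pc+/+ library and 2 lay below that group's median. The log2 fold change was 1.22 (SE 0.33, edgeR adjusted p = 0.0301) between the shSCR groups, a 2.33-fold difference, and 1.22 (SE 0.34, edgeR adjusted p = 0.0156) between the shChREBP groups. Under shChREBP 6 of the 9 L-G6pc-/- libraries were above every L-G6pc+/+ library. The first of these calls was lost when any of 7 single libraries was left out (adjusted p up to 0.0924, without library 21) and both were lost in limma-voom (adjusted p = 0.0700 and 0.0703) and in limma on the deposited signal (0.126 and 0.0614). The change with shChREBP was -0.44 in L-G6pc+/+ and -0.43 in L-G6pc-/- livers and passed in neither genotype.

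Ppara was measured at 79.1 to 174 CPM (median 119) in shChREBP/L-G6pc-/-, 148 to 263 CPM (median 199.6) in shChREBP/L-G6pc+/+, 106 to 192 CPM (median 158) in shSCR/L-G6pc-/- and 141 to 211 CPM (median 184) in shSCR/L-G6pc+/+ livers. All 9 shChREBP/L-G6pc-/- libraries lay below the median of either L-G6pc+/+ group, and 7 lay below the lowest shChREBP/L-G6pc+/+ library. Its log2 fold change was -0.75 (SE 0.14, edgeR adjusted p = 0.000421) against shChREBP/L-G6pc+/+ and -0.62 (SE 0.14, edgeR adjusted p = 0.00205) against shSCR/L-G6pc+/+ livers. Libraries 29, 30 and 32, at 84.0, 80.3 and 79.1 CPM, were the lowest of the 9. Without libraries 29, 30, 32 and 33 the first difference was -0.56 (edgeR adjusted p = 0.00912) and the second was -0.44 and no longer passed (edgeR adjusted p = 0.0779). The median log2 fold change of the 14 hepatocyte markers was -0.33 and -0.44 in the same 2 comparisons, and its part in the Ppara result was not tested. With shChREBP the change was 0.13 in L-G6pc+/+ and -0.38 in L-G6pc-/- livers (edgeR adjusted p = 0.637 and 0.0873).

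Among the genes of uptake, binding and activation, Cd36, which encodes a fatty acid transporter of the plasma membrane, was higher with G6pc deficiency under both hairpins. The libraries had 50.7 to 98.3 CPM (median 66.2) in shChREBP/L-G6pc-/-, 38.8 to 68.97 CPM (median 48.4) in shChREBP/L-G6pc+/+, 63.9 to 139.9 CPM (median 84.1) in shSCR/L-G6pc-/- and 42.04 to 77.3 CPM (median 56.6) in shSCR/L-G6pc+/+ livers. All 8 shSCR/L-G6pc-/- libraries lay above the shSCR/L-G6pc+/+ median, and 5 lay above that group's highest library. The log2 fold change was 0.65 (SE 0.15, edgeR adjusted p = 0.0103) between the shSCR groups and 0.47 (SE 0.15, edgeR adjusted p = 0.0380) between the shChREBP groups. The first call held without any single library (0.51 to 0.73), while the second was lost in 7 of 33 such fits and without libraries 29, 30, 32 and 33 (0.35, edgeR adjusted p = 0.21). Cd36 is also expressed by macrophages and endothelium. The 16 macrophage markers summed to 1147 to 2665 CPM (median 2048) in shSCR/L-G6pc-/- livers, against 1275 to 2117 CPM (median 1551) in shSCR/L-G6pc+/+ livers, none of the 15 tested markers was called between these groups (edgeR; list median 0.00), and the 14 sinusoidal endothelial markers summed to medians of 637 and 690.5 CPM. The part of these cells in the Cd36 result was not tested.

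Fabp1, the liver fatty acid binding protein with the repeat in its promoter shown above, did not pass in any comparison. Per library the level was 1510.1 to 5697 CPM (median 2877) in shChREBP/L-G6pc-/-, 1976 to 4046 CPM (median 2434) in shChREBP/L-G6pc+/+, 3412 to 6805 CPM (median 4698) in shSCR/L-G6pc-/- and 2623 to 4873 CPM (median 3639.6) in shSCR/L-G6pc+/+ livers. The 4 lowest shChREBP/L-G6pc-/- values, from 1510.1 to 1736 CPM, were those of libraries 29, 30, 32 and 33, and the other 5 lay between 2877 and 5697 CPM. The change with shChREBP in L-G6pc-/- livers was -0.66 (SE 0.22, edgeR adjusted p = 0.0598) and passed in DESeq2 (adjusted p = 0.0422), in limma-voom (0.0207) and in limma on the deposited signal (0.0392). Without those 4 libraries it was -0.18 (edgeR adjusted p = 0.779). Between the shSCR groups it was 0.44 (edgeR adjusted p = 0.375). Acsl1, the main hepatic long-chain acyl-CoA synthetase, had group medians between 529 and 685 CPM and fitted changes from -0.37 to -0.12 over the 5 comparisons of groups, none of which passed.

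**Figure D2:**
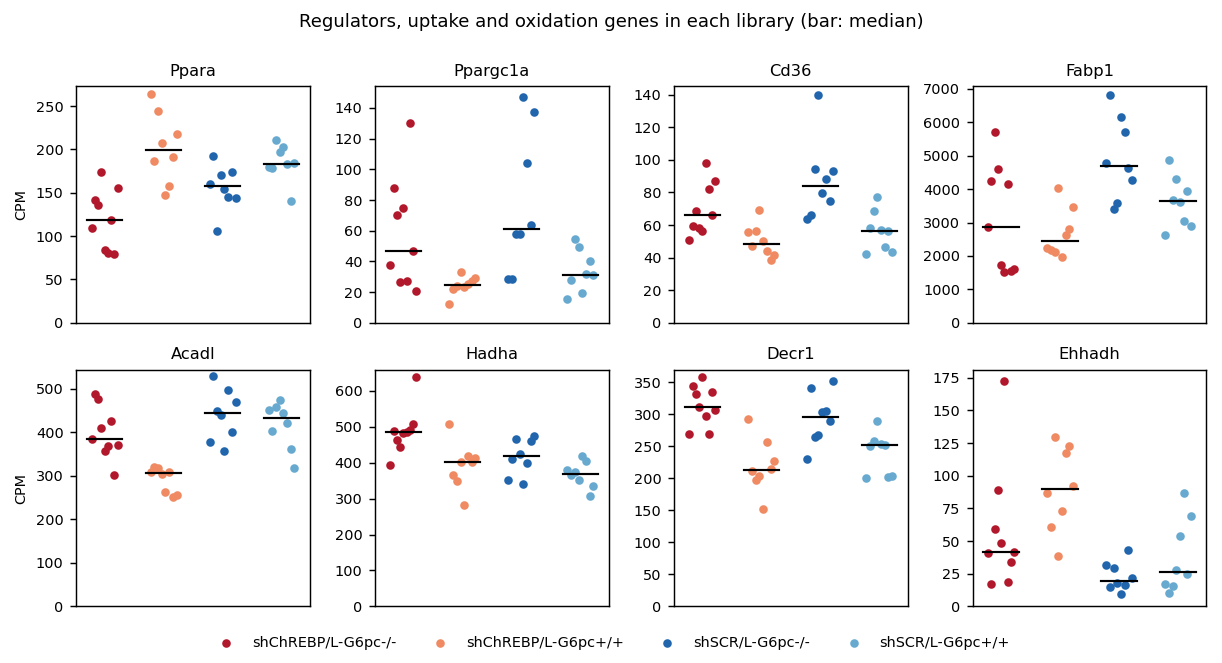
TMM-scaled CPM (y axis, from 0) of 8 genes in each of the 33 libraries (points), by group, with a bar at the group median. Ppargc1a and Cd36 sit higher in both L-G6pc-/- groups than in the L-G6pc+/+ group with the same hairpin, Acadl is lowest in shChREBP/L-G6pc+/+ livers, and the Ehhadh values of the groups spread over one another.

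None of the 4 carnitine shuttle genes passed in any comparison. Cpt1a, the malonyl-CoA-sensitive carnitine palmitoyltransferase that controls entry into the mitochondrion, had its smallest p between the shSCR groups. It was measured at 202 to 363 CPM (median 313) in shSCR/L-G6pc-/- and 160.5 to 301 CPM (median 229) in shSCR/L-G6pc+/+ livers, a log2 fold change of 0.35 (SE 0.13, edgeR adjusted p = 0.158). Crat, carnitine acetyltransferase, had the smallest adjusted p of the 4, between the shChREBP groups. Its level was 16.4 to 29.1 CPM (median 20.5) in shChREBP/L-G6pc-/-, 9.94 to 20.02 CPM (median 14.98) in shChREBP/L-G6pc+/+, 16.9 to 30.8 CPM (median 21.6) in shSCR/L-G6pc-/- and 8.63 to 30.1 CPM (median 18.99) in shSCR/L-G6pc+/+ livers. It was 0.46 (SE 0.18, edgeR adjusted p = 0.0937) between the shChREBP groups, where 6 of 9 L-G6pc-/- libraries lay above every L-G6pc+/+ library, and -0.42 (SE 0.18, edgeR adjusted p = 0.169) with shChREBP in L-G6pc+/+ livers. All 4 genes had a positive change between the shChREBP groups. Cpt2, the inner membrane carnitine palmitoyltransferase, had group medians between 161 and 181 CPM. Slc25a20, the carnitine-acylcarnitine translocase, had group medians between 70.9 and 83.7 CPM.

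Of the 11 mitochondrial beta-oxidation genes none passed between the shSCR groups, where their median log2 fold change was 0.08, with 2 of the 11 at an unadjusted p under 0.05 in edgeR. Acadl, the long-chain acyl-CoA dehydrogenase, was lower with shChREBP in L-G6pc+/+ livers, and it was higher in shChREBP/L-G6pc-/- than in shChREBP/L-G6pc+/+ livers. The values were 301 to 488 CPM (median 385) in shChREBP/L-G6pc-/-, 251 to 319.7 CPM (median 306) in shChREBP/L-G6pc+/+, 356 to 529 CPM (median 443) in shSCR/L-G6pc-/- and 318 to 474 CPM (median 432) in shSCR/L-G6pc+/+ livers. All 8 shChREBP/L-G6pc+/+ libraries lay below the shSCR/L-G6pc+/+ median and 6 lay below that group's lowest library. The change with shChREBP in L-G6pc+/+ livers was -0.51 (SE 0.10, edgeR adjusted p = 0.00247), a fall to 0.700 times the shSCR level, and in L-G6pc-/- livers it was -0.14 (SE 0.10, edgeR adjusted p = 0.402). The difference between these changes was 0.37 (SE 0.14) and did not pass (edgeR adjusted p = 0.272). Between the genotypes under shChREBP the change was 0.45 (SE 0.10, edgeR adjusted p = 0.00240), with 8 of 9 shChREBP/L-G6pc-/- libraries above every shChREBP/L-G6pc+/+ library. Both calls of Acadl held without any single library, without libraries 29, 30, 32 and 33 (-0.52 and 0.59) and in every other scaling, filter and test run.

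Decr1, the 2,4-dienoyl-CoA reductase needed for unsaturated fatty acids, was higher in shChREBP/L-G6pc-/- livers than in either L-G6pc+/+ group. Across libraries it stood at 269 to 359 CPM (median 311) in shChREBP/L-G6pc-/-, 152 to 293 CPM (median 213) in shChREBP/L-G6pc+/+, 230.5 to 353 CPM (median 297) in shSCR/L-G6pc-/- and 201 to 289.8 CPM (median 252) in shSCR/L-G6pc+/+ livers. All 9 shChREBP/L-G6pc-/- libraries were above the median of each L-G6pc+/+ group, and 7 were above the highest library of either. The change was 0.51 (SE 0.10, edgeR adjusted p = 0.00117) against shChREBP/L-G6pc+/+ and 0.39 (SE 0.10, edgeR adjusted p = 0.00895) against shSCR/L-G6pc+/+ livers. Between the shSCR groups it was 0.30 and did not pass (edgeR adjusted p = 0.131). Hadha, the alpha subunit of the trifunctional protein, was measured at 394 to 639 CPM (median 485) in shChREBP/L-G6pc-/-, 281 to 507 CPM (median 402) in shChREBP/L-G6pc+/+, 339.7 to 474 CPM (median 417) in shSCR/L-G6pc-/- and 308 to 418 CPM (median 369.6) in shSCR/L-G6pc+/+ livers. Its change was 0.31 (SE 0.10, edgeR adjusted p = 0.0317) against shChREBP/L-G6pc+/+, where 1 of 9 libraries exceeded that group's highest, and 0.41 (SE 0.10, edgeR adjusted p = 0.00375) against shSCR/L-G6pc+/+ livers, where 8 of 9 did. Hadhb, the beta subunit on the shared promoter, had 20.6 to 32.5 CPM (median 24.2) in shChREBP/L-G6pc-/- and 19.1 to 27.5 CPM (median 21.7) in shSCR/L-G6pc+/+ livers, and its change of 0.19 did not pass (edgeR adjusted p = 0.426). Over the 33 libraries Hadhb had 1698 reads and Hadha 30644. The cause of this gap was not tested, and it limits a comparison of the 2 genes. Without libraries 29, 30, 32 and 33, the differences of Hadha were 0.22 and 0.32 and those of Decr1 were 0.48 and 0.36, and only the Decr1 difference from shChREBP/L-G6pc+/+ still passed (edgeR adjusted p = 0.206, 0.112, 0.0129 and 0.116). The Hadha difference from shChREBP/L-G6pc+/+ was also lost without library 10, 11, 13 or 33.

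The other mitochondrial genes did not pass in any comparison. Hadh, the short-chain 3-hydroxyacyl-CoA dehydrogenase, was -0.22 with shChREBP in L-G6pc+/+ and -0.22 in L-G6pc-/- livers on the log2 scale (edgeR adjusted p = 0.155 and 0.128). The counts gave 308 to 485 CPM (median 436) in shChREBP/L-G6pc-/-, 313 to 425 CPM (median 387) in shChREBP/L-G6pc+/+, 391 to 591 CPM (median 486) in shSCR/L-G6pc-/- and 379 to 496 CPM (median 436) in shSCR/L-G6pc+/+ livers. Acaa2, the matrix thiolase, was -0.25 with shChREBP in L-G6pc-/- livers (edgeR adjusted p = 0.117), with 342 to 574 CPM (median 489) in shChREBP/L-G6pc-/- and 441 to 681 CPM (median 575) in shSCR/L-G6pc-/- livers. Etfdh, which passes electrons of the acyl-CoA dehydrogenases to ubiquinone, was 0.29 between the shSCR groups (edgeR adjusted p = 0.235), with 65.1 to 97.4 CPM (median 82.4) in shSCR/L-G6pc-/- and 54.1 to 86.1 CPM (median 65.5) in shSCR/L-G6pc+/+ livers. The remaining acyl-CoA dehydrogenases act on chains of different length. Group medians lay between 419.7 and 479 CPM for Acadvl (very long chains), between 361 and 414 CPM for Acadm (medium chains) and between 429 and 472 CPM for Acads (short chains). Eci1, a mitochondrial enoyl-CoA isomerase, had group medians between 60.98 and 67.1 CPM. Summed over the 11 genes, the median level was 3557 CPM in shChREBP/L-G6pc-/- (between 3347 and 4068), 3368 in shChREBP/L-G6pc+/+ (between 2603 and 3645), 3568 in shSCR/L-G6pc-/- (between 3073 and 4261) and 3462 in shSCR/L-G6pc+/+ livers (between 3093 and 3697).

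Of the peroxisomal genes, Ehhadh, the L-bifunctional enzyme and a classic PPARA target in rodents, was higher with shChREBP in L-G6pc-/- livers. Its level was 17.3 to 173 CPM (median 41.5) in shChREBP/L-G6pc-/-, 38.2 to 129 CPM (median 89.6) in shChREBP/L-G6pc+/+, 9.32 to 42.8 CPM (median 19.8) in shSCR/L-G6pc-/- and 10.5 to 87.1 CPM (median 26.2) in shSCR/L-G6pc+/+ livers. Of the 9 shChREBP/L-G6pc-/- libraries 4 lay above the highest shSCR/L-G6pc-/- library and 2 lay below that group's median, and library 30 had the highest value of the series, at 173 CPM. The log2 fold change was 1.33 (SE 0.40, edgeR adjusted p = 0.0336), a 2.51-fold difference. The call was lost without library 18, 20, 21, 22, 24, 28 or 30, most of all without library 30 (0.92, edgeR adjusted p = 0.146), and without libraries 29, 30, 32 and 33 it was 0.97 (edgeR adjusted p = 0.327). In L-G6pc+/+ livers the change with shChREBP fell outside the threshold, at 1.22 (SE 0.39, edgeR adjusted p = 0.0547). Besides fits without a single library, it passed in 5 other settings, among them the fit of the compared groups alone (edgeR adjusted p = 0.0334). The difference between both changes was 0.11 (edgeR adjusted p = 0.957). Between the shSCR groups Ehhadh was -0.74 (edgeR adjusted p = 0.426).

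Hsd17b4, the D-bifunctional enzyme of peroxisomes, was higher in each of the other 3 groups than in shSCR/L-G6pc+/+ livers. The libraries had 147 to 219 CPM (median 182) in shChREBP/L-G6pc-/-, 141 to 235 CPM (median 183) in shChREBP/L-G6pc+/+, 150.0 to 244 CPM (median 187) in shSCR/L-G6pc-/- and 105 to 175 CPM (median 144) in shSCR/L-G6pc+/+ livers. Its change against shSCR/L-G6pc+/+ was 0.45 (SE 0.11, edgeR adjusted p = 0.0151) in shSCR/L-G6pc-/-, 0.40 (SE 0.11, edgeR adjusted p = 0.0318) in shChREBP/L-G6pc+/+ and 0.36 (SE 0.11, edgeR adjusted p = 0.0220) in shChREBP/L-G6pc-/- livers. These 3 values share the shSCR/L-G6pc+/+ libraries, and the last 2 calls were lost without library 2 or library 5 of that group, the one in shChREBP/L-G6pc+/+ livers also without library 6, 9 or 16. Without libraries 29, 30, 32 and 33 the value in shChREBP/L-G6pc-/- livers was 0.36 and no longer passed (edgeR adjusted p = 0.146). The shChREBP change in L-G6pc-/- livers was -0.09, and the difference between the changes in both genotypes, -0.49 (SE 0.16), had the smallest p of the 39 genes and did not pass (edgeR adjusted p = 0.193).

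Acaa1a and Acaa1b encode near-identical peroxisomal thiolases, and 42.1% and 38.8% of the 50-base stretches in the last 500 bases of their transcripts are found in the other, so their reads may be shared. Acaa1b was measured at 1029 to 2181 CPM (median 1536) in shChREBP/L-G6pc-/-, 631 to 1782 CPM (median 1165) in shChREBP/L-G6pc+/+, 1170.4 to 2497 CPM (median 1845) in shSCR/L-G6pc-/- and 1233 to 2923 CPM (median 1663) in shSCR/L-G6pc+/+ livers. In L-G6pc+/+ livers it was lower with shChREBP, -0.62 (SE 0.19, edgeR adjusted p = 0.0443), with 5 of 8 libraries below the lowest shSCR/L-G6pc+/+ library and 2 above that group's median. This call was lost without any of 10 single libraries and without libraries 9 and 13 (edgeR adjusted p = 0.054). Acaa1a was measured at 203 to 331 CPM (median 272) in shChREBP/L-G6pc-/-, 247 to 366 CPM (median 274) in shChREBP/L-G6pc+/+, 188 to 293 CPM (median 236) in shSCR/L-G6pc-/- and 232 to 369 CPM (median 294) in shSCR/L-G6pc+/+ livers. Between the shSCR groups it was -0.37 (SE 0.11, edgeR adjusted p = 0.0482), and all 8 shSCR/L-G6pc-/- libraries lay below the shSCR/L-G6pc+/+ median. That call was lost in 26 of 33 fits without a single library (adjusted p up to 0.137). Pex11a, which promotes division of peroxisomes, was -0.32 with shChREBP in L-G6pc+/+ livers (edgeR adjusted p = 0.133), with 438 to 658 CPM (median 537) in shChREBP/L-G6pc+/+ and 545 to 814 CPM (median 671) in shSCR/L-G6pc+/+ livers. The auxiliary enzymes of unsaturated chains did not pass in any comparison, with group medians between 108 and 116 CPM for Ech1, between 108 and 123 CPM for Eci2 and between 39.97 and 51.9 CPM for Decr2.

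**Figure D3:**
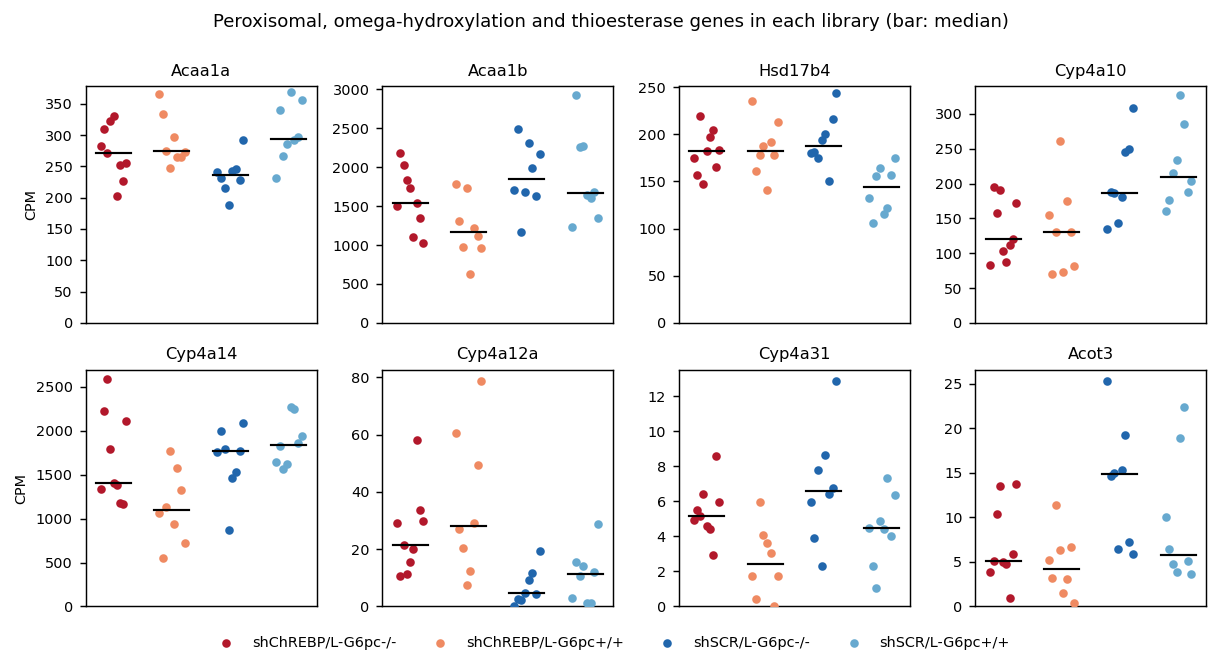
TMM-scaled CPM (y axis, from 0) of 8 peroxisomal, omega-hydroxylation and thioesterase genes in each of the 33 libraries (points), by group, with a bar at the group median. Cyp4a12a sits higher in both shChREBP groups than in the shSCR group of the same genotype, while Cyp4a10 and Cyp4a14 sit lower in shChREBP/L-G6pc+/+ than in shSCR/L-G6pc+/+ livers.

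The CYP4A genes of omega-hydroxylation did not move together with shChREBP. Cyp4a12a, a form with higher expression in male than in female mice, was higher with shChREBP in both genotypes. Per library the level was 10.7 to 58.1 CPM (median 21.4) in shChREBP/L-G6pc-/-, 7.53 to 78.6 CPM (median 28.1) in shChREBP/L-G6pc+/+, 0 to 19.3 CPM (median 4.57) in shSCR/L-G6pc-/- and 1.11 to 28.6 CPM (median 11.3) in shSCR/L-G6pc+/+ livers. All 9 shChREBP/L-G6pc-/- libraries were above the shSCR/L-G6pc-/- median, and 6 were above its highest library. Library 17 of shSCR/L-G6pc-/- had 0 counts of Cyp4a12a, which allows a level of up to 1.49 CPM (3 counts, counting error only). The log2 fold change was 1.92 (SE 0.53, edgeR adjusted p = 0.0187) in L-G6pc-/- and 1.80 (SE 0.49, edgeR adjusted p = 0.0270) in L-G6pc+/+ livers, 3.79-fold and 3.47-fold. The first call held without any single library but not without libraries 29, 30, 32 and 33, where the change was 1.95 (edgeR adjusted p = 0.133), and the second did not hold in DESeq2 (adjusted p = 0.0506) or in limma on the deposited signal (0.0877), nor without library 5, 6, 9, 15 or 16 (adjusted p up to 0.0798). Cyp4a12a and Cyp4a12b share 37.0% of the 50-base stretches near their 3' ends, and with the counts of both genes summed the changes were 1.97 and 1.84 (edgeR adjusted p = 0.0144 and 0.0278).

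Cyp4a14 and Cyp4a10, which PPARA agonists strongly induce in mice, were lower with shChREBP in L-G6pc+/+ livers. Cyp4a14 was measured at 1162 to 2589 CPM (median 1401) in shChREBP/L-G6pc-/-, 549.9 to 1768 CPM (median 1095) in shChREBP/L-G6pc+/+, 873 to 2094 CPM (median 1766) in shSCR/L-G6pc-/- and 1566 to 2276 CPM (median 1843) in shSCR/L-G6pc+/+ livers. All 8 shChREBP/L-G6pc+/+ libraries lay below the shSCR/L-G6pc+/+ median, and 6 lay below its lowest library. The change was -0.72 (SE 0.19, edgeR adjusted p = 0.0209). In L-G6pc-/- livers it was 0.02, and the difference between the changes, 0.75 (SE 0.27), did not pass (edgeR adjusted p = 0.234). Between the genotypes under shChREBP Cyp4a14 was higher in L-G6pc-/- livers, 0.57 (SE 0.19, edgeR adjusted p = 0.0391). Cyp4a10 was measured at 82.8 to 195 CPM (median 121) in shChREBP/L-G6pc-/-, 70.8 to 261 CPM (median 131) in shChREBP/L-G6pc+/+, 135 to 309 CPM (median 187) in shSCR/L-G6pc-/- and 160.3 to 327 CPM (median 209) in shSCR/L-G6pc+/+ livers. It was -0.74 (SE 0.22, edgeR adjusted p = 0.0443) with shChREBP in L-G6pc+/+ livers and -0.72 (SE 0.22, edgeR adjusted p = 0.0208) in shChREBP/L-G6pc-/- against shSCR/L-G6pc+/+ livers. Its change with shChREBP in L-G6pc-/- livers, -0.59, did not pass (edgeR adjusted p = 0.0840). Without libraries 9 and 13 the changes with shChREBP in L-G6pc+/+ livers were -0.67 for both genes and no longer passed (edgeR adjusted p = 0.0625 for Cyp4a14 and 0.0981 for Cyp4a10), and without libraries 29, 30, 32 and 33 the difference of Cyp4a10 from shSCR/L-G6pc+/+ was -0.60 (0.241). The Cyp4a14 difference between the shChREBP groups was lost without any of 9 single libraries, and the Cyp4a10 change in L-G6pc+/+ livers without any of 11. The Cyp4a14 change in L-G6pc+/+ livers was lost without library 16 (edgeR adjusted p = 0.0521) and the Cyp4a10 difference of shChREBP/L-G6pc-/- from shSCR/L-G6pc+/+ livers without library 5 (0.0586).

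Cyp4a31 was counted at 0 to 22 reads per library. The values were 2.93 to 8.61 CPM (median 5.18) in shChREBP/L-G6pc-/-, 0 to 5.95 CPM (median 2.40) in shChREBP/L-G6pc+/+, 2.32 to 12.9 CPM (median 6.59) in shSCR/L-G6pc-/- and 1.06 to 7.32 CPM (median 4.46) in shSCR/L-G6pc+/+ livers, and between the genotypes under shChREBP it was 1.13 (SE 0.38, edgeR adjusted p = 0.0474). All 9 shChREBP/L-G6pc-/- libraries were above the shChREBP/L-G6pc+/+ median and 3 were above its highest library. Library 15 of shChREBP/L-G6pc+/+ had 0 counts, which allows up to 1.42 CPM. The call was lost in 20 of 33 fits without a single library. Cyp4a32 did not pass the filter, with 0 to 8 reads per library, and 66.7% of its 50-base stretches are shared with Cyp4a10 and Cyp4a31.

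None of the 4 acyl-CoA thioesterases, which release free fatty acids from acyl-CoA, passed in any comparison. Acot3, a peroxisomal form, was -1.09 with shChREBP in L-G6pc+/+ and -0.96 in L-G6pc-/- livers (SE 0.46 and 0.40, edgeR adjusted p = 0.150 and 0.141). Across libraries it stood at 0.977 to 13.7 CPM (median 5.15) in shChREBP/L-G6pc-/-, 0.432 to 11.4 CPM (median 4.18) in shChREBP/L-G6pc+/+, 5.84 to 25.3 CPM (median 14.8) in shSCR/L-G6pc-/- and 3.64 to 22.4 CPM (median 5.72) in shSCR/L-G6pc+/+ livers, and each group spread over several-fold. Acot1, the cytosolic form, was -0.53 with shChREBP in L-G6pc+/+ livers (edgeR adjusted p = 0.197), with 41.4 to 91.5 CPM (median 59.3) in shChREBP/L-G6pc+/+ and 56.5 to 123 CPM (median 87.9) in shSCR/L-G6pc+/+ livers. The mitochondrial form Acot2 had 2.14 to 18.04 CPM (median 10.6) in shChREBP/L-G6pc-/-, 2.58 to 9.20 CPM (median 6.84) in shChREBP/L-G6pc+/+ and 3.40 to 9.46 CPM (median 5.70) in shSCR/L-G6pc+/+ livers, a change of 0.75 and 0.76 (edgeR adjusted p = 0.102 and 0.0867). The peroxisomal form Acot4, whose promoter held both an AGGTCA and a CACGTG, had group medians between 13.03 and 22.9 CPM.

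Bdh1, the last enzyme of ketone body formation and the one ketogenesis gene in the set, did not pass in any comparison. The counts gave 339 to 504 CPM (median 433) in shChREBP/L-G6pc-/-, 310.5 to 524 CPM (median 400.2) in shChREBP/L-G6pc+/+, 352 to 471 CPM (median 418) in shSCR/L-G6pc-/- and 343 to 444 CPM (median 384) in shSCR/L-G6pc+/+ livers, and its fitted changes lay between 0.05 and 0.15 over the 5 comparisons of groups. Of the other PPARA targets, Vnn1, which encodes a pantetheinase, was 0.34 (SE 0.13, edgeR adjusted p = 0.152) between the shSCR groups, with 39.6 to 55.5 CPM (median 42.00) in shSCR/L-G6pc-/- and 22.7 to 45.2 CPM (median 34.8) in shSCR/L-G6pc+/+ livers. Angptl4, an inhibitor of lipoprotein lipase, had group medians between 71.3 and 108 CPM and did not pass in any comparison. Pdk4, which restrains pyruvate oxidation, did not pass the filter on low counts. It was listed at 0.675 to 19.1 CPM (median 3.13) in shChREBP/L-G6pc-/-, 0.575 to 8.19 CPM (median 3.05) in shChREBP/L-G6pc+/+, 0.496 to 3.91 CPM (median 1.43) in shSCR/L-G6pc-/- and 0.486 to 2.11 CPM (median 1.26) in shSCR/L-G6pc+/+ livers, and library 30 of shChREBP/L-G6pc-/- had the highest value.

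**Figure D4:**
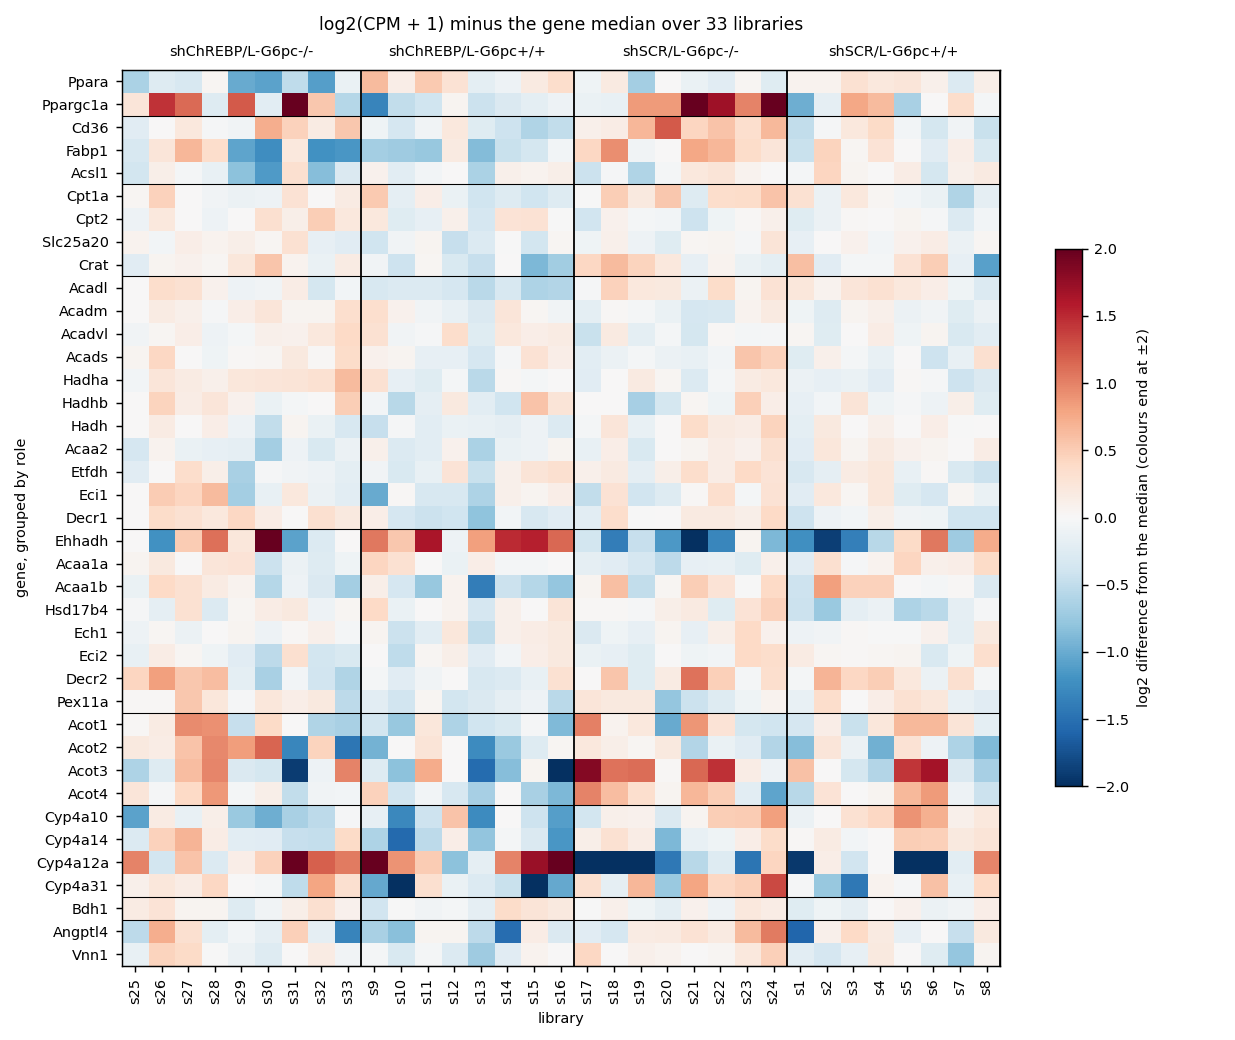
log2(CPM + 1) of the 39 tested genes (rows, by role) minus each gene's median over the 33 libraries (columns, by group), with colours that end at a difference of 2. Libraries 29, 30, 32 and 33 share low Fabp1, most mitochondrial genes stay near white, and the colours of Ppargc1a, Ehhadh, Acot3 and Cyp4a12a span a wide range.

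The shChREBP effect was compared between the genotypes as an interaction, L-G6pc-/- minus L-G6pc+/+. In edgeR 0 of the 39 genes passed, beside 0.0589% of all genes higher and 0.0196% lower, and 6 had an unadjusted p under 0.05, 3 in each direction. Each of the other tools run (DESeq2, limma-voom, and limma applied to the deposited signal) also called 0. Apart from Hsd17b4, Cyp4a14 and Acadl above, these were Pex11a at 0.51 (SE 0.18), Ppara at -0.51 (SE 0.20) and Etfdh at -0.39 (SE 0.17) (edgeR adjusted p = 0.239, 0.288 and 0.352). Without libraries 29, 30, 32 and 33 the count stayed at 0, with 10 at an unadjusted p under 0.05, 9 of them positive. How many of all genes reached that unadjusted threshold, and in which direction, was not computed, so these counts and directions are not read as a result.

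Beyond these genes, 61 further genes of fatty acid oxidation and PPARA signalling were tested, from a list of 66. Between the shSCR groups 5 were higher and 1 was lower in L-G6pc-/- livers, beside 2.2% of all genes higher and 1.03% lower. They included Slc25a47, a mitochondrial carrier of the liver, at 0.91 (SE 0.19, edgeR adjusted p = 0.00204), Eci3, a peroxisomal enoyl-CoA isomerase, at 1.76 (SE 0.43, edgeR adjusted p = 0.0132), and Mgll, monoacylglycerol lipase, at 0.63 (SE 0.16, edgeR adjusted p = 0.0208), while Bdh2 was lower at -0.69 (SE 0.19, edgeR adjusted p = 0.0301). With shChREBP in L-G6pc+/+ livers 1 was higher and 4 were lower, beside 2.16% and 3.23% of all genes. Cyp4a12b was higher at 2.23 (SE 0.65, edgeR adjusted p = 0.0387). Its reads were few, with 21 over all shSCR/L-G6pc+/+ libraries (median 1.03 CPM), of which 2 had none. The shSCR/L-G6pc-/- libraries held 43 (median 1.16 CPM). Under shChREBP there were 88 for L-G6pc+/+ and 247 for L-G6pc-/- livers. As Cyp4a12a holds 37.0% of its 50-base stretches, reads may be shared, and its changes are not separate evidence from those of Cyp4a12a. Acox3, a peroxisomal acyl-CoA oxidase, was lower at -0.68 (SE 0.17, edgeR adjusted p = 0.0149), Mcee, methylmalonyl-CoA epimerase, at -0.52, Acsl5, an acyl-CoA synthetase, at -0.44 and Nudt19, a peroxisomal diphosphatase of CoA, at -0.39 (edgeR adjusted p = 0.0293, 0.0306 and 0.0498).

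In L-G6pc-/- livers shChREBP gave 2 of the 61 higher and 8 lower, beside 3.33% and 4.23% of all genes. Fgf21, a hepatic hormone induced by PPARA in fasting and by other stimuli, was measured at 4.78 to 29.4 CPM (median 16.8) in shChREBP/L-G6pc-/-, 0.575 to 6.49 CPM (median 4.04) in shChREBP/L-G6pc+/+, 1.998 to 13.4 CPM (median 4.26) in shSCR/L-G6pc-/- and 0.909 to 8.08 CPM (median 1.49) in shSCR/L-G6pc+/+ livers. It was higher with shChREBP in L-G6pc-/- livers, 1.54 (SE 0.41, edgeR adjusted p = 0.0142), and Cyp4a12b was higher too, 2.06 (SE 0.52, edgeR adjusted p = 0.0103). Lower were Mgll at -0.89 (SE 0.16, edgeR adjusted p = 0.000297), Pank1, a pantothenate kinase of CoA synthesis, at -0.68 (SE 0.12, edgeR adjusted p = 0.000447), Nudt19 at -0.51 (SE 0.11, edgeR adjusted p = 0.00427) and Slc27a5, a fatty acid and bile acid acyl-CoA synthetase, at -0.56 (SE 0.13, edgeR adjusted p = 0.00509). Eci3 was measured at 1.47 to 8.44 CPM (median 2.95) in shChREBP/L-G6pc-/-, 0 to 2.71 CPM (median 0.473) in shChREBP/L-G6pc+/+, 2.32 to 24.5 CPM (median 9.70) in shSCR/L-G6pc-/- and 0.454 to 6.94 CPM (median 2.27) in shSCR/L-G6pc+/+ livers. Without libraries 29, 30, 32 and 33 none of the 61 passed (edgeR; 4 higher and 5 lower at an unadjusted p under 0.05), and 7 of the 14 hepatocyte markers were lower in this comparison with all libraries (list median -0.33), whose part was not tested.

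Between the genotypes under shChREBP 9 of the 61 were higher and 1 was lower in shChREBP/L-G6pc-/- livers, beside 6.14% and 4.9% of all genes. Fgf21 was 2.09 (SE 0.43, edgeR adjusted p = 0.00137), Acacb, which makes the malonyl-CoA that restrains CPT1A, was 0.85 (SE 0.19, edgeR adjusted p = 0.00277), Slc25a47 was 0.81 (SE 0.18, edgeR adjusted p = 0.00306) and Acsl3, an acyl-CoA synthetase, was 0.89 (SE 0.20, edgeR adjusted p = 0.00322). Acadsb, the short branched-chain acyl-CoA dehydrogenase, was lower at -0.68 (SE 0.13, edgeR adjusted p = 0.000406). Against shSCR/L-G6pc+/+ livers 6 were higher and 6 were lower in shChREBP/L-G6pc-/- livers, beside 6.87% and 6.37% of all genes. Cyp4a12b (3.30, on few reads), Fgf21 (2.39), Slc25a47 (0.84) and Ucp2, an uncoupling protein (0.94), led the higher genes. Their edgeR adjusted p was 0.000143, 0.000196, 0.00154 and 0.00371. Slc27a5 (-0.67), Acadsb (-0.55), Hsd17b10, a mitochondrial hydroxyacyl-CoA dehydrogenase (-0.60), and Pxmp2, a peroxisomal membrane channel (-0.68), led the lower ones (edgeR adjusted p = 0.000449, 0.00248, 0.00755 and 0.0212). None of the 61 passed for the interaction in edgeR, with 5 at an unadjusted p under 0.05, nor in the other tools.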

How the data were processed

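The authors sequenced 3' ends of liver RNA (QuantSeq), used HISAT for alignment to GRCm38, SAMtools for sorting and HTSeq for counts per gene, with tool versions not given in the sources used here. They deposited a table of raw counts for 25988 genes. The authors also deposited a normalized signal table of 11125 genes made with voom of limma, whose values were found to be linear, (count + 0.5) over a number for each library, so log2 was taken where the design had assumed log2 values. Names came from that table and GENCODE M21.

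Counts were filtered with filterByExpr (minimum count 10, minimum total 15), scaled by TMM and fitted with edgeR 4.0.16 (R 4.3.3, limma 3.58.1, DESeq2 1.42.0) in 1 quasi-likelihood model of all 4 groups, with two-sided tests and Benjamini-Hochberg adjustment over 10179 genes. CPM are counts per 1000000 TMM-scaled reads of the genes tested. Log2 fold changes use edgeR's default prior. The scripts were tested on simulated data. The members and lists were chosen with earlier results of these data known. Named were genes of the set called in any comparison, the 6 of smallest p not called in the 3 main comparisons and the interaction, all others once, and up to 4 called each way of the further list. A few withheld genes are not reported here. Alternatives were RLE or no scaling, DESeq2, limma-voom, limma on the signal table, other filters, the compared groups alone, each library left out, and fits without libraries 29, 30, 32 and 33 or without Gm42418. Fits without libraries 9 and 13, and with Cyp4a12a and Cyp4a12b summed, were chosen after seeing the data. No label marks libraries 29, 30, 32 and 33, which lay apart in the first principal component of the same counts. The fit without them is therefore not independent of these data. Library numbers are those of the titles. The sources do not say if counting used strand. Near-identical genes were assessed as the share of 50-base stretches in the last 500 bases of the longest coding transcript that other genes' transcripts also hold.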

Additional observations from a re-analysis of the deposited data

Results flagged for a closer look

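Of 156 sets of values (39 genes in 4 groups), 5 had a lowest library far below the rest of its group by Dixon's test, which chance gives in about 1 in 20 groups. Ppara had 141 CPM in library 7 of shSCR/L-G6pc+/+ and 179 to 211 CPM in the others. Ppargc1a had 12.1 CPM in library 9 of shChREBP/L-G6pc+/+ and 22.3 to 33.03 CPM in the others. Acsl1 had 417 CPM in library 13 of shChREBP/L-G6pc+/+ and 563 to 702 CPM in the others. Cyp4a14 had 873 CPM in library 20 of shSCR/L-G6pc-/- and 1458 to 2094 CPM in the others. Libraries 9 and 20 also had the highest shares of counts from Gm42418, whose part in these low values was not tested. Angptl4 had 30.9 CPM in library 1 of shSCR/L-G6pc+/+ and 68.6 to 126 CPM in the others.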

How the results depend on the processing

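No direction of the 49 named changes among the 39 genes was reversed in the alternatives run, and calls were lost or gained as follows. In limma on the deposited values the count of the 39 genes called was 2 in place of 4 between the shSCR groups and 5 in place of 8 between the shChREBP groups, and of the further 61 genes it was 3 in place of 6 between the shSCR groups, 2 in place of 5 for shChREBP in L-G6pc+/+ and 6 in place of 10 for shChREBP in L-G6pc-/- livers. Without libraries 29, 30, 32 and 33 it was 0 of the 39 in place of 2 for shChREBP in L-G6pc-/- (5 at an unadjusted p under 0.05), 0 in place of 5 for shChREBP/L-G6pc-/- against shSCR/L-G6pc+/+ (10 unadjusted), and of the 61 it was 0 in place of 10, 5 in place of 12, 9 in place of 5 for shChREBP in L-G6pc+/+ and 1 in place of 0 for the interaction. Without libraries 9 and 13, shChREBP in L-G6pc+/+ had 3 of the 39 in place of 6 and 1 of the 61 in place of 5, while for those 61 DESeq2 gave 9, the compared groups alone 8 and limma-voom 3. Scaling by library size alone gave 6 of the 39, all higher, in place of 2 for shChREBP in L-G6pc-/- livers. There the median of all genes lay at 0.11 and 75.8% of all calls were higher, against 44.0% with TMM, and the share of higher calls was 57.6% against 68.1% between the shSCR groups, 74.0% against 55.6% between the shChREBP groups and 68.2% against 51.9% for shChREBP/L-G6pc-/- against shSCR/L-G6pc+/+. With 1 library left out, the count of the 39 ran from 2 to 4 between the shSCR groups (2 without library 2, 5, 8, 21 or 22), 1 to 8 for shChREBP in L-G6pc+/+ (1 without library 16, 3 without library 2, 5, 6 or 15, 7 without library 12, 8 without library 8), 1 to 4 for shChREBP in L-G6pc-/- (1 without library 18, 21, 22, 24 or 30, 4 without library 19 or 26), 4 to 9 between the shChREBP groups (4 without library 10, 5 without library 16), 3 to 7 for shChREBP/L-G6pc-/- against shSCR/L-G6pc+/+ (3 without library 5), and was 0 for the interaction, and that of the 61 ran from 3 to 7, 1 to 8, 7 to 11, 5 to 11, 8 to 15 and 0 to 0 in the same order. The causes were not tested. No paired analysis was possible because no replicate number is shared between groups. Summed over the 33 libraries Cyp4a32 had 52 reads, Pdk4 222, Cyp4a31 349, Acot2 559 and Acot3 647, the lowest of the 41 genes.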
